A study of Danio rerio with 17 samples.

Results

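The midbrain transcriptome of Pargana zebrafish on a selenium-supplemented diet was compared with that of Pargana fish on a selenium-deficient diet. The fish were assigned to the comparison by their strain and diet labels: 3 supplemented and 3 deficient fish, 6 of the 17 fish in the series. All 17 were sexually mature males, 1 year old, from a pair of populations named Pargana and Transgenic Mosaic 1, and each array measured the midbrain of a single fish. They ate their diet for 10 weeks. Selenium, in the form of selenomethionine, stood at 0.46 ppm in the deficient diet, 1.7 ppm in the control diet and 3.1 ppm in the supplemented diet. The 6 fish compared therefore differed in label only by diet, at 0.46 against 3.1 ppm, and the 2 Pargana fish on 1.7 ppm are given beside them where they help to place a value. The labels give the Pargana groups no allele or agent other than the diet, and how Transgenic Mosaic 1 was made is not given in the sources used here. The description code of deficient fish 3 has the letter O where those of the other Pargana fish have P. Its strain label is Pargana, and it was kept.

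Selenium enters proteins as selenocysteine, which is inserted at a UGA codon by a dedicated tRNA, the SECIS-binding protein SECISBP2 and the elongation factor EEFSEC. Selenoproteins include glutathione peroxidases, deiodinases and proteins of the endoplasmic reticulum, and in mammals the brain is among the last organs to lose selenium, supplied by selenoprotein P through the receptor LRP8. Selenomethionine is handled by the same enzymes as methionine and can replace it in proteins. In mammals the messages of some selenoproteins fall when selenium is short, while others are spared.

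No feature passed an adjusted p of 0.05 in limma, the linear model used for arrays, with p-values adjusted over all 15648 features by the Benjamini-Hochberg method (0 of 15648, 0.0%). The smallest adjusted p was 0.222. Leaving out 1 fish changed that count for some fish: 2 features passed without deficient fish 3, whose code letter differs, and 16 without supplemented fish 2. At an unadjusted p under 0.05 there were 1018 features (6.51%), of which 669 were higher (4.28%) and 349 lower (2.23%) in the supplemented fish; 5% of all features would be 782.4. The differences below are therefore descriptions of these 6 fish, and "higher" or "lower" means supplemented against deficient on the log2 scale. In 1793 features (11.5%) all 3 fish of one diet lay above all 3 of the other, 1101 with the supplemented fish above (7.04%) and 692 with them below (4.42%). The median difference over all features was 0.04 and the median size of a difference 0.14, with a median standard error (SE) of 0.18.

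Large differences were few, and most of them ran towards the supplemented fish. A log2 difference over 1, which is over 2-fold, was found for 259 features (1.66%), 207 higher and 52 lower. The count was 105 with the quartile of features of lowest mean left out, and ran from 105 to 381 over all alternatives. For 13309 features (85.1%) the 95% interval of the difference lay within 1 log2 unit on either side of 0, and for 6548 (41.8%) within 0.5. The number of arrays limits this precision. In simulated data of the same size the test recovered 14.9% of genes changed by 0.5, 65.7% of those changed by 1 and 87.9% of those changed by 2 log2 units. There 67, 67 and 66 genes were changed by these sizes, with noise drawn independently for each gene and array. Variation that genes share within a fish was not simulated, so these rates are not the power of this comparison.

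**Figure D1:**
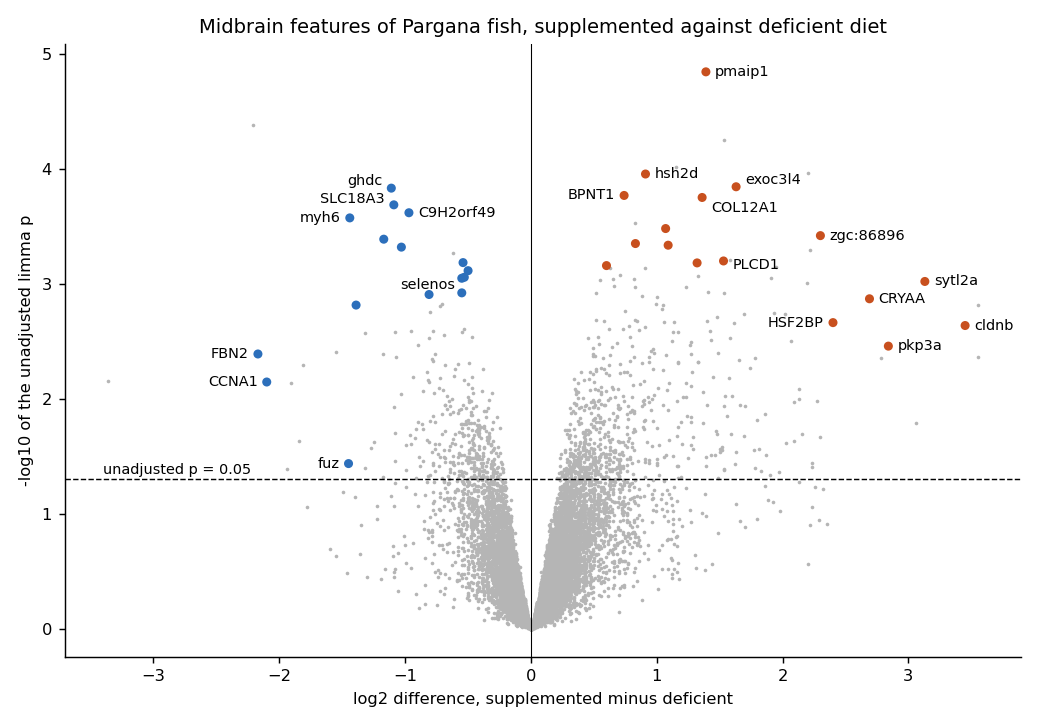
Each point is 1 of the 15648 features, placed by its log2 difference (supplemented minus deficient Pargana fish, x axis) and by the negative log10 of its unadjusted limma p (y axis). Coloured points are named genes, orange where higher and blue where lower in the supplemented fish; pmaip1 stands at the top, and the dashed line marks an unadjusted p of 0.05.

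The 6 arrays were alike overall but did not divide cleanly by diet. Correlations between pairs of fish ran from 0.978 to 0.988 across features, and same-diet pairs reached both 0.980 and 0.988. The first principal component of the 6 arrays held 28.9% of the variance, with deficient fish at 18.4, -4.96 and 34.1 and supplemented fish at -30.6, 4.12 and -21.0. Deficient fish 2 and supplemented fish 2 thus lay near the middle. The second component held 21.5% and set deficient fish 2 apart at -40.1. Midbrain markers were at high level on both diets: the means of PAX7 were 13.28 and 13.38, and those of OTX2 12.22 and 12.13, in deficient and supplemented fish. These encode transcription factors of the midbrain and tectum. Of 11 measured midbrain markers 0 had an unadjusted p under 0.05.

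Markers of other tissues differed between single fish, and diet and other differences between fish cannot be told apart for them. A list score is the mean, over the genes of a list, of the value minus that gene's mean over all 17 arrays. The muscle score was -0.14, 0.54 and 0.15 in deficient fish 1 to 3 and 1.35, 0.32 and 0.89 in supplemented fish 1 to 3. The score of an epithelium list, written after the values were seen, was -0.32, 0.30 and -0.28 against 1.09, 0.47 and 1.31. Supplemented fish 1 and 3 were thus the highest in both, and supplemented fish 2 lay near deficient fish 2. Supplemented fish 1 also had the highest eye and pineal score, 1.08 against -0.36 to 0.28 in the deficient fish. The pituitary score stood out in supplemented fish 3, at 1.77, and was close to that of control fish 2, at 1.78. In tissue RNA of this kind, fewer cells of a type and less RNA per cell cannot be told apart.

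**Figure D2:**
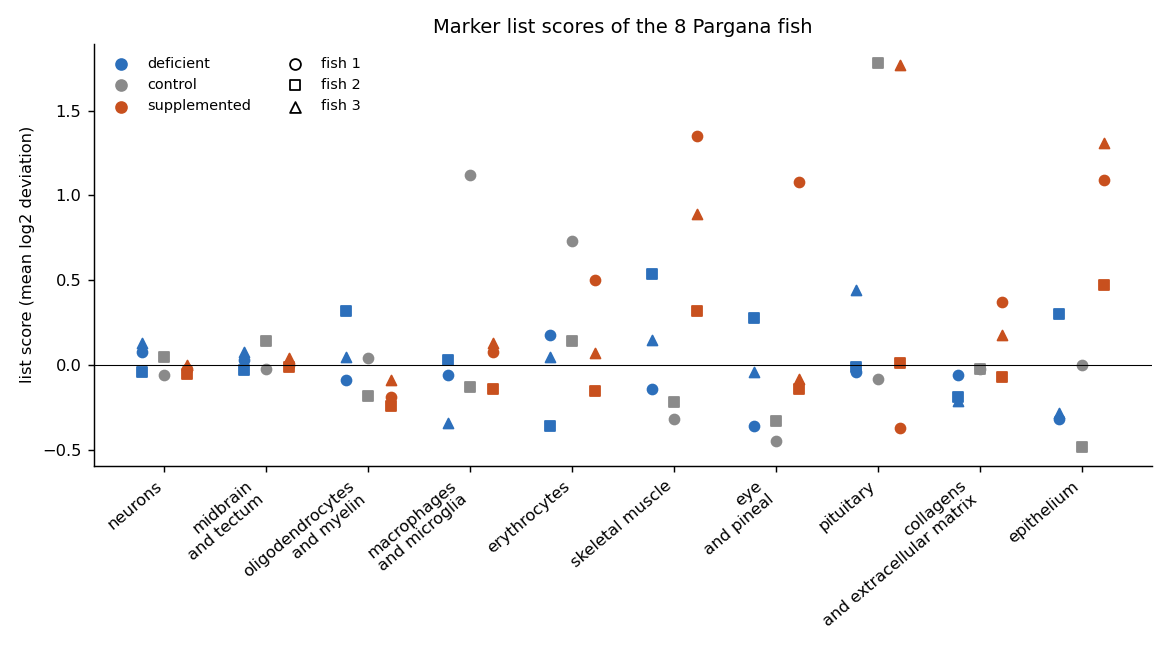
Scores of 10 gene lists (y axis, mean log2 deviation from the gene's mean over all 17 arrays) in each of the 8 Pargana fish, coloured by diet with a symbol for the fish number. Supplemented fish 1 and 3 have the highest skeletal muscle scores (1.35 and 0.89) and epithelium scores (1.09 and 1.31), whereas all midbrain and neuron scores lie near 0.

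The smallest p belonged to pmaip1 (ENSDARG00000089307), which encodes Noxa, a pro-apoptotic protein of the BH3-only class that p53 induces in mammals. Its log2 level was 5.11, 5.13 and 4.98 in the deficient fish and 6.96, 6.26 and 6.18 in the supplemented fish, with 6.79 and 6.71 in the control fish. The deficient fish lay below all the others, and the control fish lay within the supplemented range. All these levels are low beside the median level of all features, 9.68, and no detection call was available. The difference was 1.39 (SE 0.21), or 2.62-fold, with an adjusted limma p of 0.222. It ran from 1.15 to 1.53 when any of the 6 fish was left out, and it was 1.06 with the epithelium score as a covariate. That score was higher in every supplemented fish than in any deficient fish, so the value of 1.06 cannot separate tissue from diet.

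Several other genes had control fish close to the supplemented fish. For exoc3l4 (ENSDARG00000058180) the deficient fish had 6.68, 6.68 and 5.96, the control fish 7.77 and 8.13, and the supplemented fish 8.07, 7.76 and 8.37. The groups did not overlap, and the supplemented fish were higher by 1.63 (SE 0.31), or 3.09-fold (unadjusted p = 0.000142). HMOX1, the haem oxygenase that breaks down haem under oxidative stress, had 6.35, 6.62 and 6.56 in deficient, 7.51 and 7.33 in control and 7.46, 7.26 and 7.28 in supplemented fish. The deficient fish were again the lowest, by 0.82 (SE 0.31) against the supplemented fish (unadjusted p = 0.0183). Among the lower genes USP25, a deubiquitinase, and EXOSC8, a subunit of the RNA exosome, had control values of 10.38 and 10.52 and of 10.96 and 11.29, below every deficient fish for USP25 (10.75 to 11.09) while for EXOSC8 they bracketed the supplemented fish (10.99 to 11.14) and reached the lowest deficient fish (11.28). Their differences were -0.50 (SE 0.12) and -0.55 (SE 0.14).

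In a further group the control fish lay with the deficient fish. SLC18A3, the vesicular acetylcholine transporter that marks cholinergic neurons, had 7.37, 7.29 and 7.58 in deficient, 7.14 and 7.49 in control and 5.84, 6.82 and 6.29 in supplemented fish. All supplemented fish were below the other 5, by 1.09 on the log2 scale against the deficient fish (difference -1.09, SE 0.22, unadjusted p = 0.000204). The level of ghdc was 7.78, 7.60 and 7.89 in deficient, 7.65 and 7.52 in control and 6.90, 6.64 and 6.4 in supplemented fish, a difference of -1.11 (SE 0.21). PIBF1, a protein of the centrosome, had 9.76, 9.73 and 10.17, then 9.76 and 9.88, then 8.55, 9.00 and 9.03 in the same order of diets, a difference of -1.03 (SE 0.23). In these genes the supplemented fish stood apart from both other diets without overlap. The same held in the other direction for hsh2d, an SH2-domain adaptor of lymphocytes in mammals, with 5.51, 5.30 and 5.20 in deficient, 5.18 and 5.70 in control and 6.12, 6.28 and 6.36 in supplemented fish. Its difference was 0.91 (SE 0.17, unadjusted p = 0.00011).

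**Figure D3:**
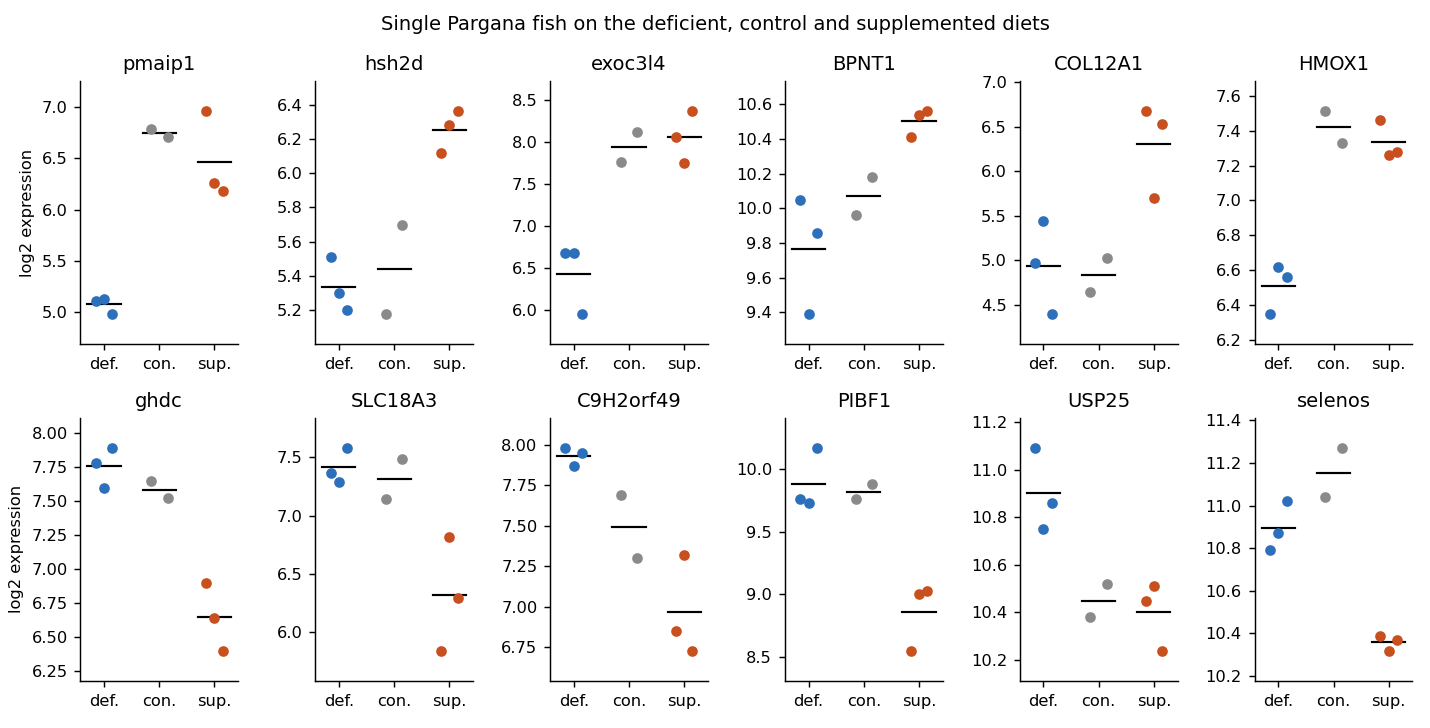
Log2 level (y axis, a separate scale for each gene) of 12 genes in single Pargana fish on the deficient (def.), control (con.) and supplemented (sup.) diets, with a bar at the mean of each diet. The deficient and supplemented fish do not overlap in any panel, and the control fish lie near the supplemented fish for pmaip1, exoc3l4, HMOX1 and USP25 and near the deficient fish for ghdc, SLC18A3, COL12A1 and PIBF1.

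For some genes the control mean was intermediate. BPNT1, a phosphatase that hydrolyses the by-product of sulphation reactions, had 10.05, 9.39 and 9.86 in deficient, 9.96 and 10.18 in control and 10.41, 10.54 and 10.56 in supplemented fish, a difference of 0.74 (SE 0.14). MYB, a transcription factor of blood progenitors, had 4.32 to 4.62 in deficient, 4.91 and 4.81 in control and 5.18 to 5.36 in supplemented fish, a difference of 0.83 (SE 0.18). The levels of mid1ip1a, whose mammalian counterpart promotes the activity of acetyl-CoA carboxylase in fatty acid synthesis, were 4.99 to 5.32, 5.85 and 5.91, and 6.0 to 6.56, a difference of 1.09 (SE 0.24). C9H2orf49 ran the other way, with 7.98, 7.87 and 7.95, then 7.69 and 7.30, then 6.85, 7.32 and 6.73, a difference of -0.97 (SE 0.20). Over all 1793 features without overlap the control mean lay between the means of the other diets in 997 (55.6%). These features were picked because the outer diets do not overlap, which favours a control mean in between. The share over all features was not counted, so no graded response to selenium is read from it.

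The remaining genes of smallest p were mixed in function. AQP8, a water channel, was higher by 1.07 (SE 0.23) and zgc:153018 by 0.60 (SE 0.14). PLCD1, a phospholipase C, was measured by a pair of features, each higher by 1.53 (SE 0.35 and 0.27, unadjusted p = 0.000628 and 5.56e-05). Lower in the supplemented fish were myh6, the atrial myosin heavy chain, by 1.44 on the log2 scale (difference -1.44, SE 0.30), CLP1, an RNA kinase of message and tRNA processing (-0.81, SE 0.20), bub1ba, a kinase of the spindle checkpoint (-0.54, SE 0.12), and the uncharacterised ENSDARG00000095576 (-1.17, SE 0.25). Of features without a symbol, ENSDARG00000005419 had 7.47, 6.58 and 7.0 in deficient and 4.85, 4.43 and 5.13 in supplemented fish, a difference of -2.21 (SE 0.38, unadjusted p = 4.11e-05). ENSDARG00000037898 was higher by 2.20 (SE 0.41) and ENSDARG00000041190 by 1.15 (SE 0.21). Both control fish lay in the deficient range or above it for ENSDARG00000005419, at 7.77 and 6.64, and close to the deficient fish for the other two.

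Selenoproteins as a group showed little difference between the diets. Of 36 listed genes 17 were matched by name to a feature of their own, which is what measured means for every list here. The others may still be among the features, some of which have no symbol. Of the 17, 1 (5.88%) had an unadjusted p under 0.05, against 6.51% of all features. The median difference was 0.07 beside 0.04 over all features, and for 16 of the 17 the 95% interval lay within 1 log2 unit on either side of 0. This bounds the change in message only, as protein and selenium content were not measured. The exception in width was selenow2b, a selenoprotein W paralogue, with 5.81, 6.04 and 5.89 in deficient and 6.68, 6.44 and 6.85 in supplemented fish. Its groups did not overlap, yet the difference of 0.74 had an SE of 0.54, because the model takes its spread from all 17 fish (unadjusted p = 0.192).

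The selenoprotein with an unadjusted p under 0.05 was selenos (ENSDARG00000070097), and it was lower in the supplemented fish. It encodes selenoprotein S, a membrane protein of the endoplasmic reticulum that takes part in the removal of misfolded proteins. The 3 deficient fish had 10.79, 10.87 and 11.02, the 2 control fish 11.04 and 11.27, and the 3 supplemented fish 10.39, 10.32 and 10.37. The supplemented fish were below the other 5 and close together. The difference was -0.53 (SE 0.13, 1.45-fold), with an unadjusted p of 0.000871 and an adjusted limma p of 0.368. It stayed between -0.59 and -0.47 when any of the 6 fish was left out. In Transgenic Mosaic 1 the same contrast was 0.07 (unadjusted p = 0.606), and the difference between the populations, -0.60, did not pass adjustment (unadjusted p = 0.00474).

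The glutathione peroxidases and the other selenoproteins sat near 0. The peroxidase gpx1a, whose mammalian counterpart is sensitive to selenium supply, had 10.64, 11.62 and 10.88 in deficient and 11.25, 11.17 and 11.39 in supplemented fish, a difference of 0.22 (SE 0.23). The paralogue gpx1b differed by -0.04 (SE 0.25), the secreted gpx3 by 0.32 (SE 0.26) and GPX4, which reduces lipid peroxides, by 0.20 (SE 0.17). For each of these the diets overlapped. The carrier selenop, at 13.11 to 13.55 in deficient and 13.16 to 13.37 in supplemented fish, differed by 0.02 (95% interval -0.27 to 0.31), and selenow1 by -0.10 (95% interval -0.40 to 0.20). DIO2, the deiodinase that activates thyroid hormone, differed by 0.16 (SE 0.25), MSRB1, a methionine sulphoxide reductase, by 0.13 (SE 0.13) and SELENOM by 0.27 (SE 0.16). The remaining members, selenon, SELENOO, selenot1b, selenot2 and selenou1a, lay between -0.10 and 0.07. These values are for the feature of highest mean. The symbols MSRB1 and SELENOO were each carried by another feature of lower mean, with its own Ensembl gene identifier, at -0.18 (SE 0.13) and -0.39 (SE 0.44).

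The genes that make and deliver selenocysteine gave a similar picture. Of 12 listed 7 were measured, with a median difference of 0.08, and all 7 intervals lay within 1 log2 unit of 0. EEFSEC (0.08, SE 0.15), secisbp2 (0.01, SE 0.26), SEPSECS (0.16, SE 0.17), SEPHS1 (-0.03, SE 0.17) and trnau1apb (0.09, SE 0.12) overlapped between the diets. SEPHS2, itself a selenoprotein that makes selenophosphate, had 13.07, 12.92 and 13.07 against 13.08, 13.09 and 13.25, a separation with a difference of only 0.12 (SE 0.12). The receptor LRP8 had 12.73, 13.43 and 13.04 in deficient and 12.85, 12.81 and 12.32 in supplemented fish, with overlap. Its difference was -0.41 (SE 0.18, unadjusted p = 0.0456).

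**Figure D4:**
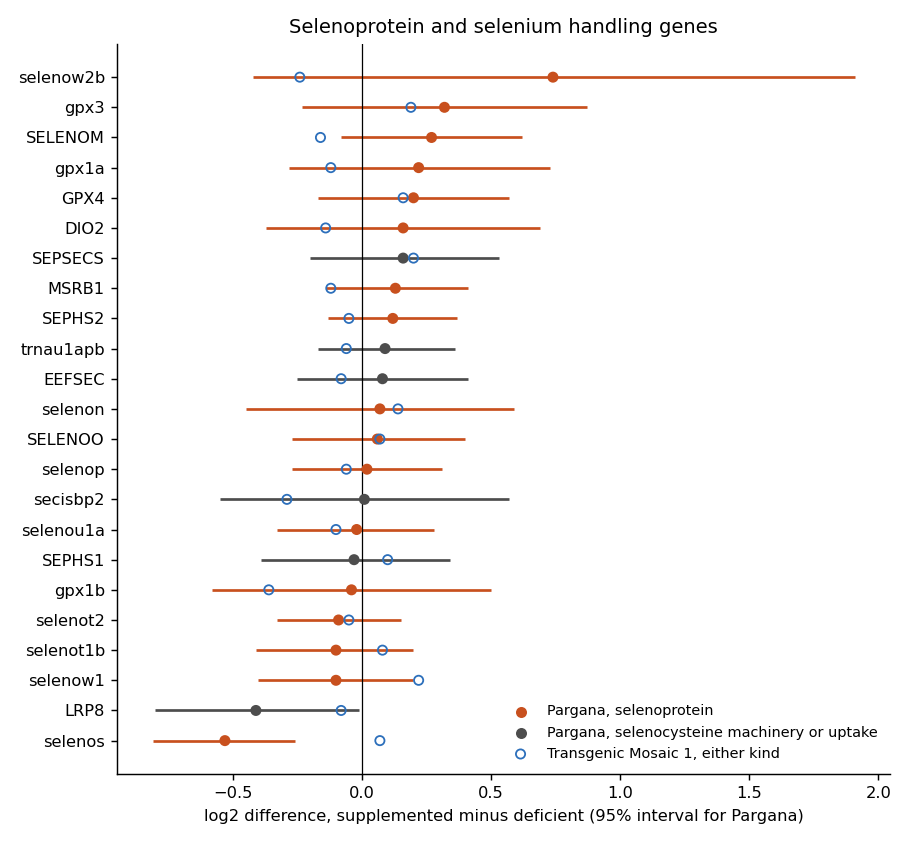
Log2 difference between the supplemented and deficient diets (x axis) for every measured selenoprotein (orange) and selenocysteine machinery or uptake gene (grey) in Pargana, with 95% intervals. Each gene is shown by its feature of highest mean. Open circles give the same difference in Transgenic Mosaic 1, without intervals. Apart from selenos (-0.81 to -0.26) and LRP8 (-0.80 to -0.01), the Pargana intervals cross 0.

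Pathways near selenium and methionine had few members past the unadjusted threshold, which 6.51% of all features passed. In the methionine cycle and transsulphuration list 1 of 21 genes (4.76%) had an unadjusted p under 0.05: MAT1A, which turns methionine into S-adenosylmethionine, had 6.98, 7.27 and 5.80 in deficient and 7.90, 7.31 and 7.48 in supplemented fish, 0.89 higher (SE 0.33). The deficient and supplemented fish nearly touched, at 7.27 and 7.31. Among 32 antioxidant and glutathione genes 2 did (6.25%), HMOX1 above and gsto1, a glutathione transferase, lower by 0.55 (difference -0.55, SE 0.24). Of 37 genes of endoplasmic reticulum stress and degradation 1 did (2.70%): DERL3, a derlin of the degradation channel, at 9.97, 10.41 and 10.27 against 9.86, 9.87 and 9.73, a difference of -0.40 (SE 0.15). That list's median was 0.01. Of 33 heat shock genes 1 did (3.03%), dnajb2, a co-chaperone, at -0.58 (SE 0.17).

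The apoptosis and p53 list had 6 of 43 genes (14.0%) at an unadjusted p under 0.05, 5 higher and 1 lower, beside 6.51% of all features, and a median difference of 0.11. Beyond pmaip1 and hsh2d it included sesn2, a stress-induced p53 target that restrains growth signalling, with 8.66, 8.83 and 9.09 in deficient and 9.55, 9.30 and 9.62 in supplemented fish. That was a difference of 0.63 (SE 0.18), with control fish at 8.81 and 9.41. The lower member, tnfsf10l3, a TRAIL-like death ligand, had 6.18, 5.77 and 6.43 against 5.74, 5.65 and 5.59, a difference of -0.46 (SE 0.16). Its control fish, at 6.72 and 6.85, were higher than all of these. No set test was applied to this or any other list.

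Neurotransmitter genes were mostly alike on the diets. In the cholinergic list 2 of 20 (10%) had an unadjusted p under 0.05, beside 6.51% of all features, both lower (2.23% of all features): SLC18A3, given above, and prima1, which anchors acetylcholinesterase to the membrane, at 6.63, 7.16 and 6.57 against 6.52, 6.28 and 6.08 (difference -0.50, SE 0.19). The list's median was 0.08, with 13 differences above 0 and 7 below. In Transgenic Mosaic 1 prima1 had a like difference of -0.47 (unadjusted p = 0.0273), while SLC18A3 had 0.02. In the monoamine list 3 of 30 (10%) did, all higher (4.28% of all features): SLC18A2, the vesicular monoamine transporter, had 12.85, 12.62 and 12.38 against 12.90, 13.02 and 12.88, a difference of 0.31 (SE 0.13). The monoamine synthesis genes th2 and DDC differed by 0.53 (SE 0.23) and 0.51 (SE 0.22). Of 16 GABA and glutamate genes 0 did (largest, GLS2, a glutaminase, at 0.42, SE 0.22).

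The few synaptic, myelin and energy genes past the unadjusted threshold were lower in the supplemented fish. Of 38 synaptic genes 2 (5.26%) had an unadjusted p under 0.05, beside 6.51% of all features. They were syt1b, a calcium sensor of vesicle release, at -0.64 (SE 0.28), and GRIN1, the obligatory NMDA receptor subunit. GRIN1 had 13.49, 13.82 and 13.69 against 13.57, 13.24 and 13.34 (difference -0.28, SE 0.13), and another feature with its symbol differed by -0.13 (SE 0.11). The median over the list was 0.01. All 6 oligodendrocyte and myelin markers were below 0, with a median of -0.27, beside 6664 of all 15648 features below 0. Of these markers 1 (16.7%) had an unadjusted p under 0.05, and it was lower (2.23% of all features). Of 61 oxidative phosphorylation genes 1 did (1.64%), CYC1, a subunit of complex III, at -0.47 (SE 0.17), and 60 of the 61 intervals lay within 1 log2 unit of 0.

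Collagen and matrix genes had the highest share of the pathway lists. Of 50 measured, 10 (20%) had an unadjusted p under 0.05, and all 10 were higher in the supplemented fish, beside 6.51% of all features called and 4.28% called higher. The median was 0.21. COL12A1, a collagen that coats fibrils, had 4.97, 5.44 and 4.40 in deficient, 4.65 and 5.03 in control and 6.67, 5.70 and 6.53 in supplemented fish. Its groups did not overlap, with a difference of 1.36 (SE 0.27, unadjusted p = 0.000176). The fibrillar collagen col1a1a had 9.50, 8.53 and 8.75, then 9.67 and 9.45, then 11.79, 9.26 and 11.08. Here supplemented fish 2 lay inside the deficient range. The difference was 1.78 (SE 0.52), and 2.51 without that fish. COL6A2, of the microfibrillar collagen VI, was higher by 1.04 (SE 0.27) and MMP2, a gelatinase, by 0.46 (SE 0.14). The collagen score followed the muscle and epithelium scores, as supplemented fish 1 and 3 had the highest of each. With the muscle score as a covariate the difference of COL12A1 was 0.87, and with the epithelium score that of col1a1a was 0.94. Both genes were highest in supplemented fish 1 and 3, as were both scores. A gene high in those fish shrinks with either score, so nothing is read from the smaller differences. The part of those tissues in these differences was not tested.

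Epithelial genes were among the largest separated differences. The tight junction gene cldnb had 5.22, 6.53 and 4.79 in deficient, 5.17 and 4.45 in control and 9.81, 7.48 and 9.60 in supplemented fish, a difference of 3.45 (SE 0.93), or 10.9-fold. The desmosome gene pkp3a had 6.12, 7.38 and 5.71 in deficient, 6.32 and 6.03 in control and 9.94, 7.55 and 10.25 in supplemented fish, a difference of 2.84 (SE 0.81). In both, supplemented fish 2 lay within 1 log2 unit of deficient fish 2, and supplemented fish 1 and 3 were far above. ESRP2, a splicing factor of epithelia, was higher by 1.32 (SE 0.30) with less spread, at 7.20, 7.16 and 6.95. Of the 26 measured genes of the epithelium list 13 (50.0%) had an unadjusted p under 0.05, all higher, and the median was 0.77. As the list was written after these values were seen, that share is a description only. With the epithelium score as a covariate cldnb differed by 0.72, pkp3a by 0.53 and zgc:86896, at 2.30 without it, by 0.95. Both cldnb and pkp3a are part of that score, which was made with their values known, so their smaller differences follow from its making. The gene zgc:86896 is not in the list. The score was highest in supplemented fish 1 and 3, so a gene high in those fish shrinks with it, listed or not. Nothing is therefore read from the smaller difference of zgc:86896.

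Muscle markers ran with the same fish. Of 20 measured, 6 (30%) had an unadjusted p under 0.05, beside 6.51% of all features. Of the 6, 5 were higher (4.28% of all features) and 1, PVALB, a parvalbumin, was lower (-0.22, with means of 14.42 and 14.20 in deficient and supplemented fish). PVALB was as high in Transgenic Mosaic 1, with means of 14.26 and 14.29, where the parvalbumin pvalb4 had 6.29 and 7.20. The level of PVALB thus did not follow that of pvalb4. In all, 18 of 20 differences were above 0, with a median of 0.50. The calcium-binding parvalbumin pvalb4 had 7.42, 8.53 and 6.99 in deficient, 7.71 and 7.45 in control and 10.60, 8.78 and 9.78 in supplemented fish (difference 2.07, SE 0.58). The troponin TNNT3 was higher by 1.45 (SE 0.45), and with the muscle score as a covariate it differed by 0.21. TNNT3 is itself part of that score, so a smaller difference follows from the way the score is made. A further feature with the symbol TNNT3 differed by 0.41 (SE 0.31). In Transgenic Mosaic 1 pvalb4 and TNNT3 differed in the same direction, by 0.91 (SE 0.58) and 0.22 (SE 0.45), with unadjusted limma p of 0.138 and 0.63. The difference between the populations had an unadjusted limma p of 0.181 for pvalb4 and 0.0757 for TNNT3. Among genes outside these lists, selenos was -0.55 with the muscle score and -0.64 with the epithelium score, and SLC18A3 was -0.77 and -0.78. Both scores ran higher in the supplemented fish, so these values cannot separate tissue from diet, and nothing is read from them.

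**Figure D5:**
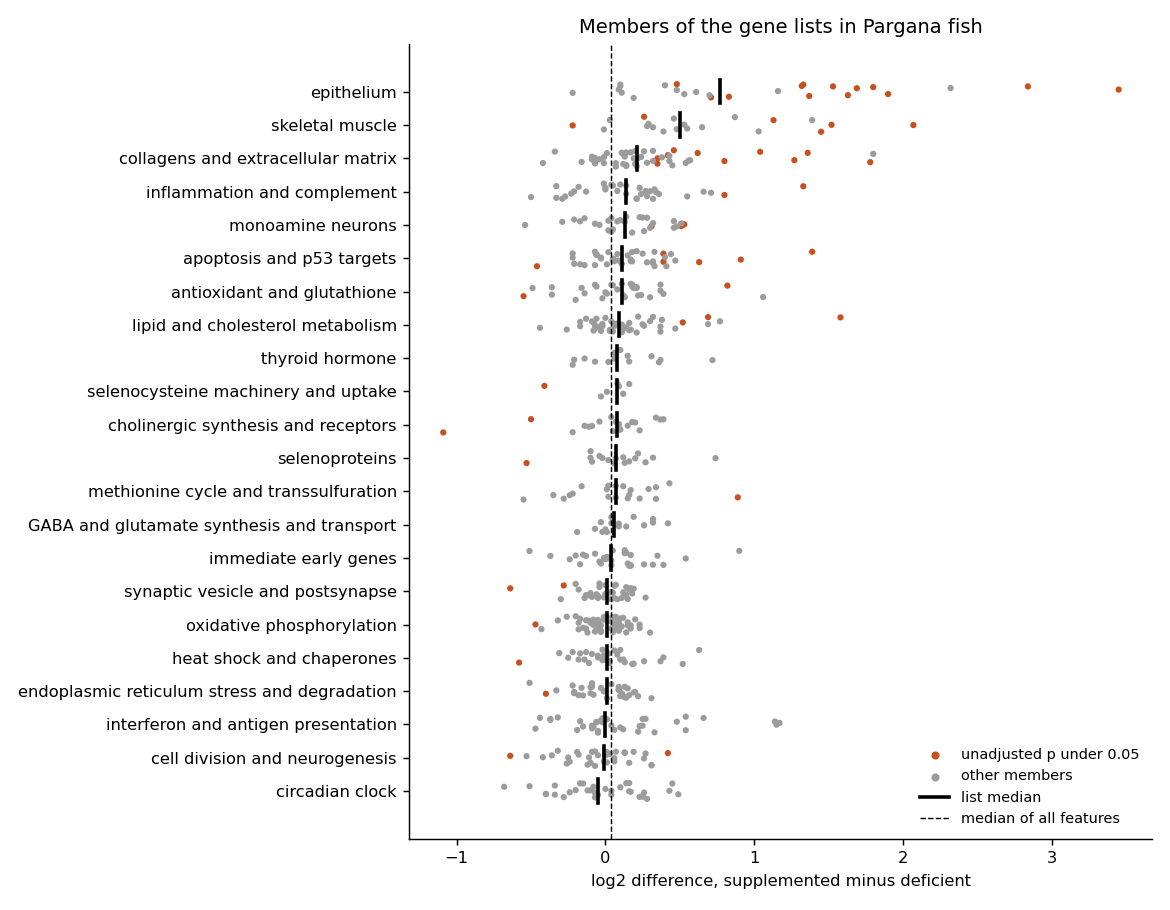
Log2 differences between the supplemented and deficient Pargana fish (x axis) for the members of 22 gene lists, 1 point per gene, orange at an unadjusted p under 0.05, with a bar at the list median and a dashed line at the median of all features (0.04). Epithelium, skeletal muscle and collagen members lie to the right, with medians of 0.77, 0.50 and 0.21, and the other medians lie between -0.05 and 0.14.

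Another pair of separated genes had a pattern of its own across single fish. CRYAA, the lens chaperone alpha-A crystallin, and HSF2BP, a binding partner of the heat shock factor HSF2, are next to each other on chromosome 1 in the RefSeq order of the GRCz12tu assembly. CRYAA had 8.01, 4.60 and 4.38 in deficient, 4.14 and 4.92 in control and 8.38, 8.66 and 8.03 in supplemented fish. HSF2BP had 9.72, 6.0 and 6.94, then 5.80 and 6.0, then 9.97, 10.08 and 9.81 in the same order. Deficient fish 1 thus stood with the 3 supplemented fish for both genes, and the other Pargana fish were low. All 9 Transgenic Mosaic 1 fish were low as well, at up to 4.73 for CRYAA and 5.84 for HSF2BP. The differences were 2.69 (SE 0.67) and 2.40 (SE 0.64). Without deficient fish 1 they were 3.87 and 3.48. As that fish is the deficient fish at the high level, its removal widens the differences by construction, and no test is read from it. Diet and other differences between fish cannot be told apart for this pair. The flanking genes CBS, which makes cystathionine from homocysteine, and ANKRD10 differed by 0.29 (SE 0.18) and 0.19 (SE 0.15). In the eye and pineal list 2 of 16 genes (12.5%, beside 6.51% of all features) had an unadjusted p under 0.05, CRYAA and the lens crystallin crygm2d1, which differed by 0.59 (SE 0.24) with overlap between the diets. The lens crystallin cryba1b differed by -0.15 and the cone transducin GNAT2 by -0.19.

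The other large separated differences also varied between fish. The Rab27 effector sytl2a had 6.72, 7.35 and 6.75 in deficient and 10.98, 8.63 and 10.61 in supplemented fish, and its control fish were split, at 6.78 and 10.71. Its difference was 3.13 (SE 0.75). FBN2, a fibrillin of elastic microfibrils, had 7.16, 5.15 and 7.84 against 4.27, 4.89 and 4.48, a difference of -2.17 (SE 0.63). CCNA1, the germline cyclin A1 of mammals, had 9.84, 8.76 and 8.96 against 6.80, 7.64 and 6.83 (difference -2.10, SE 0.66), and control fish of 6.79 and 9.05. Both genes had 1 control fish at each of the levels. The ciliogenesis gene fuz (-1.45, SE 0.62) and si:dkey-283b1.7 (-1.39, SE 0.35) completed the lower side.

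Immune, lipid and cell cycle genes added single members. Complement factor D, cfd, had 10.45, 10.60 and 9.91 in deficient, 9.74 and 10.03 in control and 11.54, 11.34 and 12.07 in supplemented fish, a difference of 1.33 (SE 0.31, unadjusted p = 0.00085). With c6.2, of the membrane attack complex (0.80, SE 0.32), it was 1 of 2 among 34 inflammation genes (5.88%). Of 36 interferon and antigen presentation genes, 33 circadian genes and 31 immediate early genes 0 had an unadjusted p under 0.05, and the circadian gene PER1 ranged from 10.75 to 12.97 within the supplemented group alone. In lipid metabolism 3 of 48 did (6.25%), all higher, among them the LDL receptor ldlra (1.58, SE 0.44) and the epoxide hydrolase EPHX2 (0.52, SE 0.20). For ldlra the fish were 7.70, 7.93 and 8.17 against 9.73, 8.31 and 10.52, with supplemented fish 2 again the closest to the deficient group. Among 36 cell division genes 2 did (5.56%, beside 6.51% of all features). CCND2, a cyclin of the start of the cycle, was higher (0.42, SE 0.13) and PCNA, the replication clamp, lower (-0.64, SE 0.22). Another feature with the symbol CCND2 differed by only 0.14 (SE 0.16).

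The other brain and blood marker lists had no member past the unadjusted threshold, which 6.51% of all features passed. In lists this short a count of 0 is near that share. Of the macrophage and microglia markers 0 of 11 had an unadjusted p under 0.05, with marco, a scavenger receptor, the largest at 0.80 (SE 0.41). The same was true of 0 of 6 neuron, 0 of 5 radial glia, 0 of 4 erythrocyte, 0 of 6 endothelium, 0 of 12 pituitary, 0 of 10 forebrain and 0 of 9 hindbrain markers. The pituitary differences were not small, with a median of 0.25 and TSHB at 0.98 (SE 1.01). Their spread was wide, with a median SE of 0.52. Of 14 thyroid hormone genes 0 did, and KLF9, a thyroid hormone target, ranged from 9.57 to 12.61 among the deficient fish.

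The same diet contrast in Transgenic Mosaic 1 gave 1 feature past an adjusted p of 0.05 in limma (0.00639%), ENSDARG00000063359, and 522 features at an unadjusted p under 0.05 (3.34%). When the difference between the populations was itself tested, 0 features passed (smallest adjusted limma p 0.526), and 843 (5.39%) had an unadjusted p under 0.05. No difference is therefore called particular to Pargana. The smallest p for that difference belonged to GFI1, a transcriptional repressor of blood and sensory cells (unadjusted p = 6.02e-05). It had 8.10, 8.24 and 8.30 in deficient and 8.81, 8.86 and 8.93 in supplemented Pargana fish, a difference of 0.65 (SE 0.16), against -0.59 in Transgenic Mosaic 1. The lipid droplet gene plin6 (0.52 against -0.45) and PYCR3, of proline synthesis (-0.47 against 0.44), had opposite signs in the same way. So did ghdc (-1.11 against 0.42) and ENSDARG00000095576 (-1.17 against 0.68). Choosing genes by a small p for the difference between the populations favours opposite signs, so the signs are not read as a result.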

How the data were processed

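Each array held Cy3-labelled cDNA, primed with random hexamers, from Trizol-extracted total RNA of a single midbrain, and the platform was NimbleGen, per the labels' protocols. The deposited values are log2 levels per Ensembl gene, made by RMA with the Zv9 build, per the submitters' processing notes. They run from 3.48 to 15.49, with array medians of 9.62 to 9.73, and were used as deposited. No detection call, slide or scan date is in the table used. Batches of arrays could therefore not be examined, and low levels could not be told from background. Several named genes, among them pmaip1, hsh2d, MYB and COL12A1, lie far below the median level of all features, 9.68. Of 15649 features 1 names no gene and was left out, and 13251 (84.68%) have a symbol. Coordinates and sequences were not used here, and the RefSeq annotation of GRCz12tu gave synonyms and the order of neighbouring genes.

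The fit used limma 3.58.1 (R 4.3.3) on all 17 arrays with 6 group means (11 residual and 2.84 prior degrees of freedom), two-sided, with Benjamini-Hochberg adjustment over 15648 features and a threshold of 0.05. Each array is a separate fish. Intervals are 95%. The test was checked on simulated data (7 false calls). Tables and figures used python 3.11.15, pandas 2.3.3, numpy 2.4.6 and matplotlib 3.10.9.

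Named genes, with 1 feature of highest mean per symbol, were the 12 of smallest p in each direction, the 5 largest differences in each direction without overlap, all measured selenoprotein and selenocysteine machinery genes, up to 4 genes of smallest p under 0.05 in each other list (otherwise the 2 largest differences), and the 5 of smallest p between the populations. Marker genes, CBS, ANKRD10, the second feature of PLCD1 and genes that pass only without 1 fish were named outside this rule, after their values were seen. A few genes named by it are not reported here. Of 1134 entries in 32 lists 753 were matched, by symbol, synonym or the symbol without a final a or b, after 5 wrong aliases were dropped. Entries of a list that met the same feature were counted once. The comparison and the lists were chosen with earlier results of these data known, and 1 list (epithelium) was added after these values were seen. Alternatives were other samples in the fit, quantile normalization again, median centring, leaving out the lowest quartile, 1 feature per symbol, trended or robust variance, array weights, marker scores as covariates and each array left out.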

Additional observations from a re-analysis of the deposited data

How the results depend on the processing

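Of 29 alternatives to the main setting, no feature passed an adjusted p of 0.05 for the diet difference in Pargana under any change of normalization, filter, variance model, weights, covariates or samples fitted. The count was 0 to 16 when 1 array was left out: 3 without deficient fish 1 (CRYAA, HSF2BP, both high in that fish, and PERP), 5 without deficient fish 2 (A1CF, ENTR1, SLC16A8, ccdc83 and tns3.2), 2 without deficient fish 3 (ENSDARG00000090087 and ENSDARG00000070311), 16 without supplemented fish 2 and 2 without Transgenic Mosaic 1 control fish 3 (ENSDARG00000037898 and PLCD1). The 16 held pmaip1, COL12A1, SLC18A3, col1a1a and ldlra, and the muscle genes CASQ1 and TNNI2. For col1a1a and ldlra supplemented fish 2 lay closest to the deficient fish, so leaving it out widens those differences by construction. The count at an unadjusted p under 0.05 ran from 686 to 1317. The count of differences over 1 was 105 with the lowest quartile left out. Features without overlap numbered 2832 to 3938 with a fish left out, since fewer fish overlap less. For the difference between the populations 0 to 3 features passed. In Transgenic Mosaic 1, 1 feature passed (ENSDARG00000063359), and 0 passed with 1 feature per symbol, marker scores, the lowest quartile left out, quantile normalization or a trended variance, and 0 to 2 with an array left out. The cause was not tested. The difference of myhc4 turned to -0.05 with the muscle score and -0.17 with 4 marker scores as covariates. As myhc4 is itself part of the muscle score, which is among the 4, a smaller difference follows from the way the score is made. Of 363 list medians 26 moved by more than the spread, in 9 lists. Of 1413 values of the 49 named genes with an unadjusted p of 0.05 or more 67 changed sign. No paired analysis was possible because the replicate numbers only name the fish and pair none across diets.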

Other observations

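Some features outside the groups described above were high in single fish. The feature of PDXK, which makes pyridoxal phosphate, with identifier ENSDARG00000088959 had 9.22, 9.47 and 8.93 in deficient, 8.94 and 9.02 in control and 12.18, 9.75 and 12.36 in supplemented fish. The other PDXK feature, ENSDARG00000036546, had 12.81 to 13.05 in the deficient fish and 12.66 to 12.95 in the supplemented fish. The feature ENSDARG00000093349 had 5.15, 4.31 and 4.83 in deficient and 10.02, 5.01 and 9.89 in supplemented fish. In ENSDARG00000088959 and ENSDARG00000093349, supplemented fish 2 lay near the deficient and control fish. Without that fish the differences were 3.06 and 5.20. As it is the supplemented fish at the low level, its removal widens the differences by construction, and no test is read from it. Both features were chosen with their values in view.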
